A study of Homo sapiens with 6 samples.

Results

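The core spliceosome genes are 44 genes taken by name from the proteins of the splicing machinery. They comprise 4 genes of the U1 snRNP, 12 of the U2 snRNP and its recruiting factors, 10 of the U5 snRNP and the U4/U6.U5 tri-snRNP, and 7 Sm genes. The other members are 5 genes of the Prp19 complex (NTC) and its partners and 6 for second-step factors and DEAH-box helicases. All 44 were found in the GENCODE version 44 annotation, among 20046 protein-coding genes on the main chromosomes. Every peak whose summit lay in the body of a member was taken, whatever its height. The members were named with earlier results of these data known.

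RNA that came down with DDX5, an RNA helicase of the DEAD-box family, was measured by RIP-seq in nuclear extracts of RH30. RH30 is an established alveolar rhabdomyosarcoma line positive for the PAX3-FOXO1 fusion, and all samples come from this 1 line without further treatment named in the labels. The series has 3 immunoprecipitates with a DDX5 antibody, called DDX5_IP, and 3 INPUT samples taken with no antibody, which were not analysed here. The submitters call the samples biological replicates, and each DDX5_IP replicate has its own peak list, with 23715, 23651 and 45832 peaks. The depth of the libraries is unknown, and its part in the length of a list was not tested. Of 7 marker genes of this tumour type and of muscle, all had a peak in every list, whereas PTPRC, EPCAM and ALB, markers of blood, epithelium and liver, had none, and the endothelial PECAM1 had 1, 0 and 1.

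The spliceosome removes introns in 2 chemical steps. The U1 snRNP recognises the 5' splice site and the U2 snRNP the branch point, after which the U4/U6.U5 tri-snRNP joins, the active site forms around PRPF8, and the NTC stabilises it. Sm proteins form a ring on the snRNAs, and DEAH-box helicases drive the rearrangements from activation to disassembly. DDX5 is itself known as a splicing-associated helicase. What was examined here are peaks in the genes that encode the proteins of the machinery, not in the snRNAs.

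The members supplied 155, 95 and 280 peaks in replicates 1, 2 and 3, which was 0.654%, 0.402% and 0.611% of each list. A peak is an interval of the deposited list, represented by its most significant summit. Its fold enrichment is the authors' ratio of the summit's signal to the background of the peak caller. Which library served as the control is not given in the sources used here, so a fold can carry the abundance of an RNA as well as its recovery with DDX5.

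A set of 6 coding stretches shows what the strongest recurrent regions look like at the level of sequence. They belong to the regions with the highest mean fold, 1 for each gene, that were found in all 3 lists and had every summit in coding sequence or an intron of the canonical transcript. Regions with a summit in a canonical UTR, such as exon 1 of CRNKL1, are not shown. Each stretch is centred on the median of the 3 summits. The letters are those of the RNA strand in GRCh38, 5' to 3', with runs of at least 3 G in capitals, because DDX5 has been described as acting on structures built from such runs.
PRPF8, exon 16 of 43, chr17:1676555-1676655, minus strand: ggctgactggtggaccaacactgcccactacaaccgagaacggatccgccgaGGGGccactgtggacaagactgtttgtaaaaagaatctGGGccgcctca
SF3A1, exon 3 of 16, chr22:30346409-30346509, minus strand: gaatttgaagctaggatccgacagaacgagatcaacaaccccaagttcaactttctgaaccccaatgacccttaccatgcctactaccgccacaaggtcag
SF3B4, exon 3 of 6, chr1:149926564-149926664, minus strand: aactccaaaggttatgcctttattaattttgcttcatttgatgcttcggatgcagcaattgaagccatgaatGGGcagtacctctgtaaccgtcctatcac
DHX8, exon 23 of 23, chr17:43523763-43523844, plus strand: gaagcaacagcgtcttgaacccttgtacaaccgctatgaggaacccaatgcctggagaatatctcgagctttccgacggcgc
SF3B3, exon 17 of 26, chr16:70561660-70561760, plus strand: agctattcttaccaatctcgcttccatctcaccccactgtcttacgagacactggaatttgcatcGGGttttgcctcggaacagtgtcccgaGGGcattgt
SNRNP200, exon 11 of 45, chr2:96297381-96297481, minus strand: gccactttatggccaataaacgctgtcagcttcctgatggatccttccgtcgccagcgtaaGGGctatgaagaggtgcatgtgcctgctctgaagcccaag

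The DHX8 stretch was trimmed to its coding part of 82 bases, and the others have 101. The 3 summits of the PRPF8 region spread over 335 bp, with the summit of replicate 1 in exon 17, and the SNRNP200 summit of replicate 1 lay in intron 11, whereas those of SF3B3 exon 17 lay within 6 bp. The SF3A1 and DHX8 stretches held no run of 3 G, and none of the 6 held 4 such runs with gaps of 1 to 7 bases between them. Over all coding summits of the members, a window of 50 bases to each side contained the triplet GGG in 71.7%, 63.2% and 67.8% of windows, against 65.9%, 65.3% and 63.3% for coding summits of all protein-coding genes. The pattern with 4 runs was found in 0 of 99, 57 and 202 coding windows of the members and in 0.338% ± 0.0516 (SD, n = 3) of all coding windows. GC content was 51.6% ± 1.39 in the members' coding windows and 51.6% ± 0.938 in all of them (SD, n = 3). The difference was 1.01, -1.39 and 0.40 percentage points in the 3 lists, and the exact permutation test by sign flips gave p = 1. Letters were read on the RNA strand alone, and a match describes the sequence, not a binding site.

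A peak in every list was found for 22 of the 44 members, or 50.0%. Among all protein-coding genes the share was 25.7%, and among those with any peak it was 49.8%. A further 6 members had a peak in 2 lists, 9 in 1 list and 7 in none. Per list, 27, 27 and 33 members had a peak, where the background was 35.2%, 35.7% and 45.8% of protein-coding genes. Peak support followed transcript length, among the members and in the background alike. Of 7 members with a canonical transcript under 1 kb, 0 had a peak in every list, against 4 of 10 at 1 to 2 kb, 8 of 14 at 2 to 4 kb and 10 of 13 at 4 kb or more. The background shares for these 4 lengths were 9.55%, 13.3%, 23.1% and 41.6%.

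**Figure D1:**
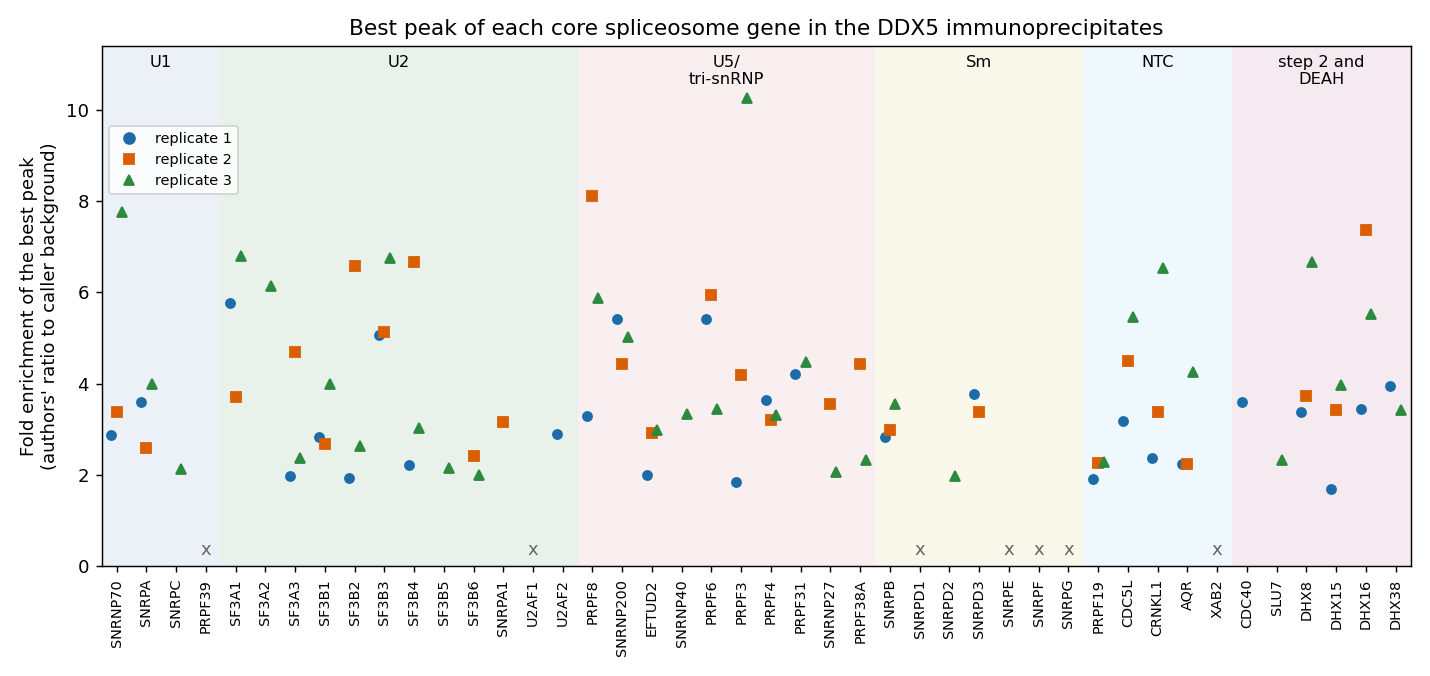
Fold enrichment of the best peak of each of the 44 members (vertical axis, the authors' ratio; 1 column per gene, shaded by class), with 1 marker per DDX5_IP replicate and a grey x where no list held a peak. PRPF3 in replicate 3 is the highest point at 10.2, and 4 of the 7 columns marked with an x are Sm genes.

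The best peak of a gene is its most significant one in a list by −log10 q. It had a median fold of 3.18, 3.56 and 3.56 over the members in replicates 1, 2 and 3. The best peak need not be the same site in each list: of the 22 members found in every list, only PRPF19 and CRNKL1 had it in the same exon each time. All member peaks together had a median fold of 2.48, 2.99 and 2.77, against 2.62, 3.18 and 2.90 for all peaks in protein-coding genes. The median of the members was lower in 3 of 3 lists, with a mean difference of -0.154 ± 0.0315 (SD, n = 3). The exact two-sided sign-flip permutation test gave 0.25, the smallest p that 3 lists allow. With a minimum fold of 4 the mean difference was 0.198 ± 0.424 (SD, n = 3), and the sign-flip permutation test gave p = 0.75. With a further filter on repeated values it was 0.033 ± 0.112 (SD, n = 3). In both settings the SD exceeded the mean, so neither gave a steady direction. The filter on repeated values left out peaks whose fold and p were both identical to those of at least 9 others in the list. Such repeated values made up 59.4%, 58.9% and 66.8% of the member peaks, and 53.7%, 61.0% and 68.0% of all peaks in the lists.

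Among the U1 genes, SNRNP70 and SNRPA had peaks in every list, SNRPC had 1 peak in replicate 3 and PRPF39 had none. SNRNP70 encodes U1-70K, which binds the first stem-loop of U1 snRNA, and its best peak had folds of 2.86, 3.37 and 7.75. No SNRNP70 region was found in all lists, because the single peak of replicate 2 lay in intron 8, whereas replicates 1 and 3 both had summits in exon 1 and in exon 10. SNRPA encodes the A protein of the U1 snRNP, and its best peak had folds of 3.59, 2.59 and 4.00. Its exon 2 coding region on chromosome 19 (40757304 to 40757474) had folds of 2.63, 2.59 and 3.08, with the 3 summits within 24 bp. A second SNRPA region in the 5' UTR of exon 1 had folds of 2.48, 2.19 and 4.00. It also overlaps the gene ACTMAP, and since the libraries are unstranded the source of its reads cannot be assigned to 1 of the 2 genes.

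Among the U2 genes, SF3A1, SF3A3, SF3B1, SF3B2, SF3B3 and SF3B4 had a peak in every list. SF3B6 had one in 2 lists, SF3A2, SF3B5, SNRPA1 and U2AF2 in 1 list, and U2AF1 in none. SF3A1, a subunit of SF3a, had 10, 7 and 11 peaks, with folds of the best peak of 5.77, 3.70 and 6.79 (mean 5.42 ± 1.57, SD, n = 3). Its exon 1 region on chromosome 22 (30356691 to 30356885) was high in all replicates, at 5.77, 4.65 and 5.54, and the 3 summits lay within 41 bp around the start of the coding sequence. This region overlaps CCDC157. The exon 3 region shown above had 2.12, 4.81 and 6.79, so replicate 1 was the low one there.

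SF3B3, a scaffold of the SF3b complex, had 14, 9 and 14 peaks and best folds of 5.07, 5.13 and 6.75 (mean 5.65 ± 0.955, SD, n = 3). Its last exon, exon 26, held a 3' UTR region at position 70573792 to 70574316 of chromosome 16 with folds of 5.07, 4.16 and 4.23 and summits within 12 bp. Coding exon 17 had 2.47, 5.13 and 2.74, with replicate 2 above the other two. SF3B4, which contacts the pre-mRNA near the branch point, had 3, 3 and 4 peaks. Its last-exon region had folds of 2.22, 6.66 and 2.38, and its exon 3 region 2.23, 5.54 and 3.03, so replicate 2 was again the high one. SF3B2 had 6, 7 and 13 peaks and 4 regions found in all lists, at folds between 1.87 and 3.80.

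SF3B1, which holds the branch-point adenosine and is the target of splicing inhibitors, had 3, 2 and 12 peaks and no region in all lists. Its best folds were 2.83, 2.69 and 4.00. SF3A3 had 1, 5 and 6 peaks, with 1 region in all lists, in the 3' UTR of exon 17 at folds of 1.97, 2.05 and 2.38. The 2 SNRPA1 peaks of replicate 2 also overlap PCSK6 and lay in introns. U2AF2, which binds the polypyrimidine tract, had a single peak in replicate 1 with a fold of 2.89 and a −log10 q of 1.83. This peak also overlaps another annotated gene, ENSG00000267523, and has repeated values of fold and p.

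U2AF1, the partner that reads the AG of the 3' splice site, has no peak at its own locus on chromosome 21 (43092956 to 43107570, minus strand). A second record of it, ENSG00000275895, is annotated as an artifact of the assembly at position 6484623 to 6499248 of the same chromosome. That record held 1, 0 and 1 peaks, with folds of 1.65 and 2.10 in replicates 1 and 3. The 121 bp under the peaks occur once, without a mismatch, in U2AF1, in coding exon 8 (43093045 to 43093165). Reads of this stretch cannot be placed at 1 of the 2 loci by sequence, so the absence of a U2AF1 peak is uncertain. By contrast, 64 named pseudogenes of the members, among them 20 of SNRPG, 18 of SNRPC and 10 of SNRPE, held 0 peaks.

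All 10 genes of the U5 snRNP and tri-snRNP had a peak somewhere in the 3 lists, and PRPF8, SNRNP200, EFTUD2, PRPF6, PRPF3 and PRPF4 had one in every list. PRPF31, SNRNP27 and PRPF38A were found in 2 lists and SNRNP40 in 1. PRPF8, the scaffold of the catalytic centre, had 33, 9 and 31 peaks, and SNRNP200, the helicase that unwinds U4/U6, had 25, 5 and 32. These 2 genes together supplied 37.4%, 14.7% and 22.5% of all member peaks.

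**Figure D2:**
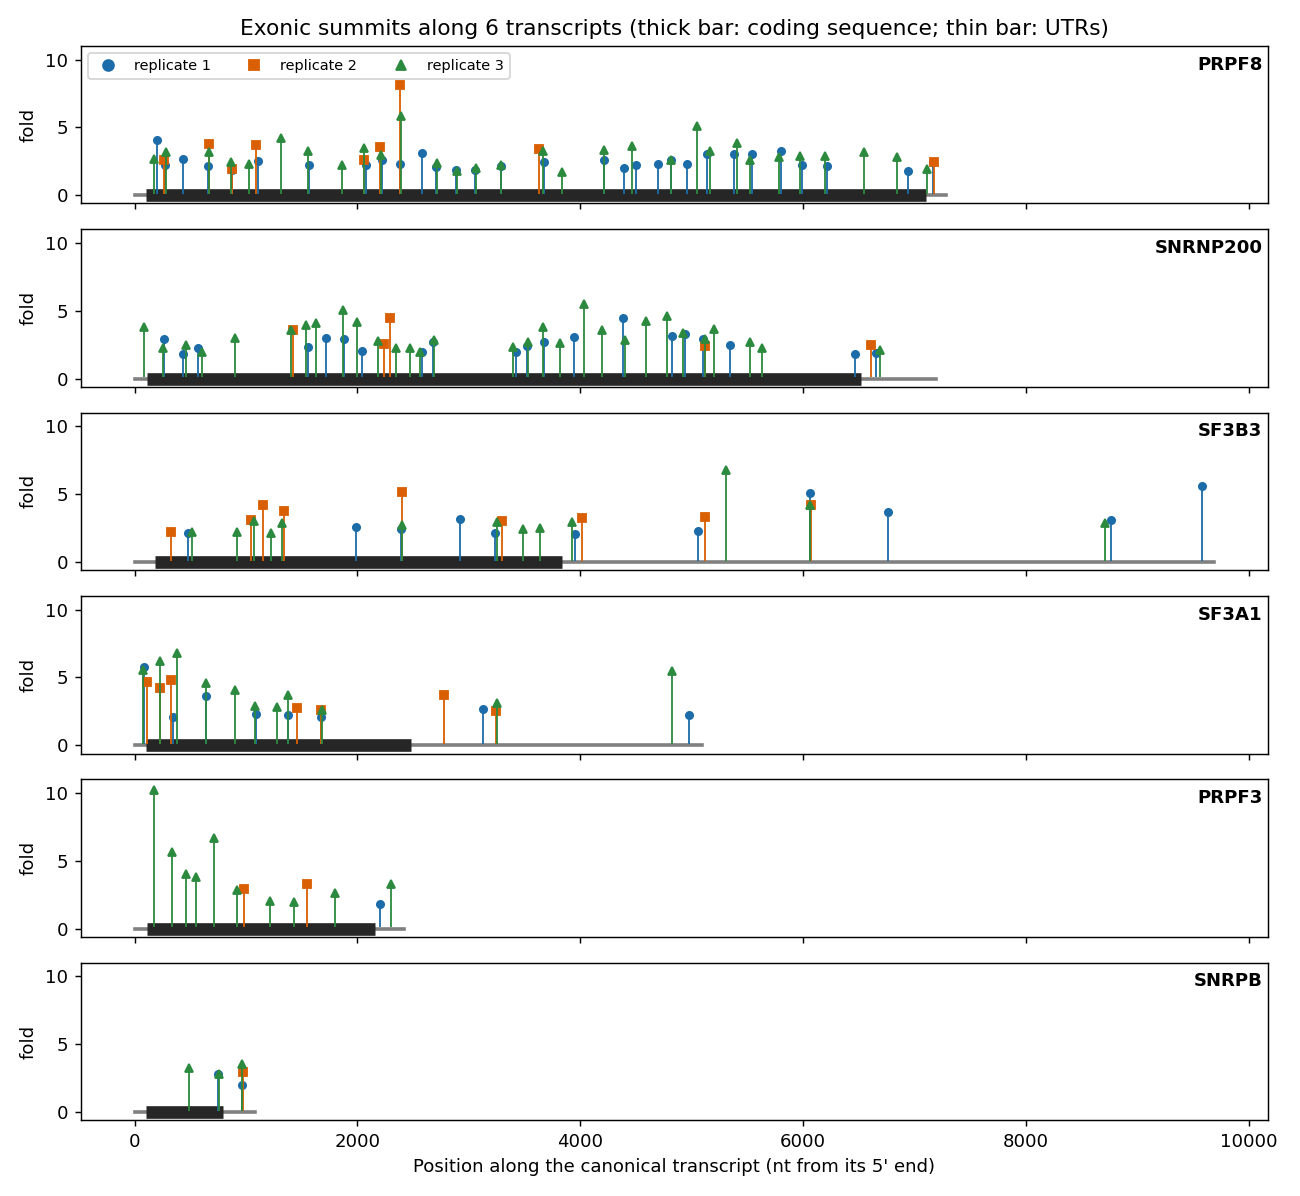
Exonic summits along the canonical transcripts of 6 members (horizontal axis, nt from the 5' end; vertical axis, the authors' fold), 1 stem per peak and 1 marker shape per replicate, with the coding sequence as a thick bar. Taken over the 3 lists, summits run along most of the coding sequence of PRPF8 and SNRNP200, with only 9 and 5 peaks from replicate 2. SF3B3 and SF3A1 also carry summits far into long 3' UTRs.

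The peaks of PRPF8 covered its exons widely. Of its 43 exons, 35 held a summit in at least 1 list and 8 held one in every list, namely exons 3, 5, 6, 14, 15, 16, 23 and 43. Its best peak had folds of 3.28, 8.12 and 5.87 (mean 5.76 ± 2.42, SD, n = 3), with replicate 1 low and replicate 2 high. In replicates 2 and 3 this was the peak at exon 16, the region with the highest mean fold among those found in all lists. Exonic peaks numbered 31, 9 and 30, where protein-coding genes with transcripts of 6000 to 8000 nt had a mean of 2.61 per list. SNRNP200 had summits in 31 of 45 exons in at least 1 list and in exons 35 and 45 in every list. Its best folds, 5.41, 4.44 and 5.02, belong to different sites, in intron 5, exon 17 and exon 14. Replicate 2 was the sparse one for both genes, although its list is about as long as that of replicate 1.

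EFTUD2, the GTPase of the U5 snRNP, had 9, 4 and 16 peaks with best folds of 2.00, 2.91 and 2.99. PRPF6, which bridges U5 and U4/U6, had 4, 2 and 7 peaks and best folds of 5.41, 5.93 and 3.46 (mean 4.93 ± 1.31, SD, n = 3). Repeated values of fold and p, as defined above, made up 3, 2 and 5 of the PRPF6 peaks and 19, 4 and 29 of the SNRNP200 peaks. The best fold of PRPF6 in replicate 1 was the same as that of SNRNP200. The last-exon region of PRPF6 on chromosome 20 (64032831 to 64033076) had 3.11, 5.93 and 2.74. PRPF3, a U4/U6 protein, differed most between lists. Its best folds were 1.85, 4.20 and 10.2 from 1, 3 and 12 peaks. In replicate 3 the fold was 10.2 at exon 2, 5.67 at exon 3, 4.04 at exon 4, 3.83 at exon 5, 6.68 at exon 6, 2.83 at exon 7 and 2.03 at exon 8. Replicates 1 and 2 had no summit in exons 2 to 6 of PRPF3. PRPF4, its partner, had 1, 1 and 2 peaks and no region in all lists, with best folds of 3.65 in exon 14, 3.21 in intron 3 and 3.32 in exon 2. PRPF31 had a single last-exon 3' UTR peak of 4.20 in replicate 1 and of 4.47 in replicate 3, and none in replicate 2. All peaks of SNRNP27 overlap MXD1 and all of PRPF38A overlap TUT4.

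Sm genes had few peaks. SNRPB was the 1 Sm gene of 7 with a peak in every list, SNRPD3 had one in 2 lists and SNRPD2 in 1, and SNRPD1, SNRPE, SNRPF and SNRPG had none. Over all protein-coding genes 25.7% had a peak in every list and 48.4% had none. The transcripts of SNRPD2, SNRPF and SNRPG are under 1 kb and those of SNRPB and SNRPE between 1 and 2 kb, and at these lengths 9.55% and 13.3% of protein-coding genes were in every list and 71.1% and 61.9% had no peak. SNRPD3, with 3466 nt, and SNRPD1, with 4858 nt, belong to lengths at which 23.1% and 41.6% were in every list. The part of length in the Sm counts was not tested. SNRPB, which encodes the B and B' proteins of the ring, had 2, 1 and 3 peaks. Its shared region lay in the 3' UTR of exon 7 on chromosome 20 (2461696 to 2461930), with folds of 1.97, 2.98 and 3.56. The 3 summits were 174, 181 and 175 nt past the coding sequence, within 7 bp of each other. All 3 SNRPD3 peaks overlap another annotated gene, ENSG00000286070, and 2 of them lay past the end of the canonical transcript. SNRPD1 had no peak although its canonical transcript has 4858 nt, a length at which protein-coding genes had a mean of 1.42 exonic peaks per list.

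In the NTC class, PRPF19, CDC5L, CRNKL1 and AQR had peaks in every list and XAB2, with a transcript of 2647 nt, had none. CDC5L, a Myb-related scaffold of the complex, had 4, 2 and 21 peaks with best folds of 3.18, 4.49 and 5.46. CRNKL1 had 2, 7 and 13 peaks, and its best peak was in exon 1 in every list, at folds of 2.36, 3.37 and 6.54. These summits lay within 12 bp, in sequence that is coding in another isoform and 5' UTR in the canonical one. AQR, the helicase of the intron-binding complex, had 9, 2 and 19 peaks and 1 region in all lists, at coding exon 33, with 2.75, 2.25 and 1.95. PRPF19, the ubiquitin ligase that names the complex, had 3, 1 and 1 peaks. Its shared 3' UTR region was among the weakest, at 1.90, 2.27 and 2.27.

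Of the second-step factors and DEAH-box helicases, DHX8, DHX15 and DHX16 had peaks in every list, DHX38 in 2, and CDC40 and SLU7 in 1. DHX8, which releases the spliced mRNA, had 11, 9 and 18 peaks and 5 regions in all lists, the strongest in exon 23 at folds of 2.86, 3.76 and 3.72. Repeated values of fold and p made up 9, 7 and 18 of the DHX8 peaks. Of the 5 regions, 1 had its summits 894 to 1042 bp beyond the end of the canonical transcript. DHX16, which acts before the first step, had 1, 2 and 5 peaks with best folds of 3.44, 7.37 and 5.52 (mean 5.45 ± 1.97, SD, n = 3). The summit of replicate 2 was 14 nt before the end of the coding sequence and that of replicate 3 was 3 nt after it. DHX15, which takes the spliceosome apart, had 3, 4 and 14 peaks. Of these, 2, 4 and 7 lay 138 to 9829 bp beyond the end of the canonical transcript, inside longer annotated isoforms, with folds of 2.07 to 4.28.

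**Figure D3:**
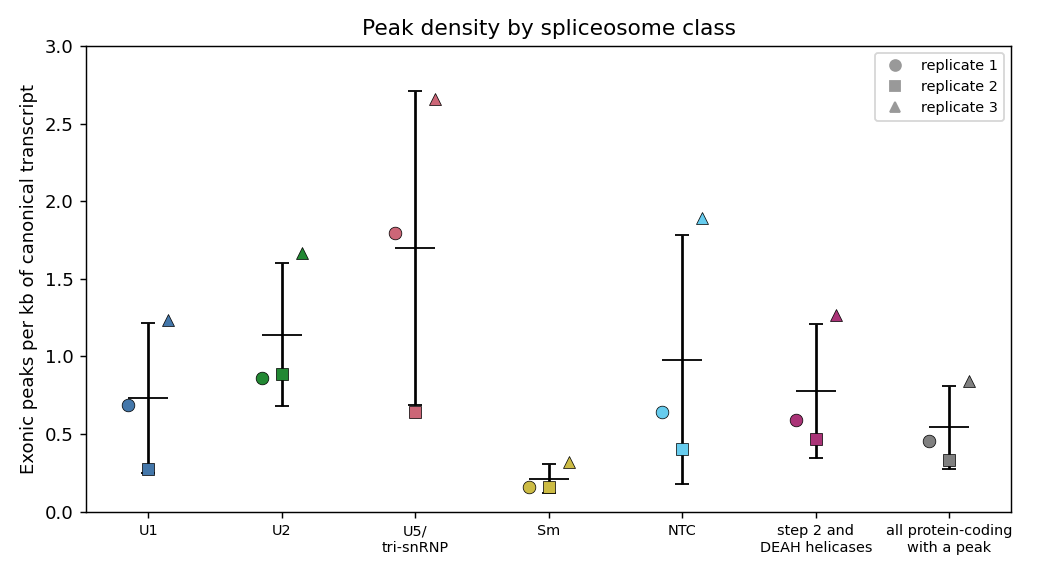
Exonic peaks per kb of canonical transcript (vertical axis) for the 6 classes and for all protein-coding genes with any peak, with 1 marker per replicate, the mean as a horizontal line and the SD over 3 lists as bars. The Sm class lies lowest in each replicate, and the U5/tri-snRNP class highest in replicates 1 and 3.

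Peak density per transcript length differed between the classes. Exonic peaks per kb of canonical transcript numbered 1.80, 0.644 and 2.66 in the U5/tri-snRNP class. The U2 class had 0.863, 0.890 and 1.67, the NTC class 0.644, 0.403 and 1.89, and the class of second-step factors and DEAH-box helicases 0.593, 0.466 and 1.27. U1 genes had 0.686, 0.274 and 1.24, and Sm genes 0.160, 0.160 and 0.319. All 44 members together had 0.954, 0.573 and 1.76, against 0.458, 0.332 and 0.844 in protein-coding genes with any peak and 0.278, 0.201 and 0.512 in all of them. The Sm class was below both backgrounds and below the other 5 classes in 3 of 3 lists. It had only 3, 3 and 5 peaks in all. SNRPD1, with 4858 nt, had no exonic peak, and SNRPD3, with 3466 nt, had 0, 1 and 0. These genes make up most of the 12527 nt of the Sm class, and their part in its density was not tested. Without PRPF8 and SNRNP200 the U5/tri-snRNP density was lower, at 0.702, 0.439 and 1.71. It was still above that of protein-coding genes with any peak in each list. The other classes were not trimmed of their densest genes. Replicate 3 had the highest density in every class, so only values of the same list were set against each other. Classes are small and were given by name, so no p was computed between them. The median best fold had class means over the 3 lists from 3.08 ± 0.285 for Sm to 3.79 ± 0.479 for U5/tri-snRNP (SD, n = 3).

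**Figure D4:**
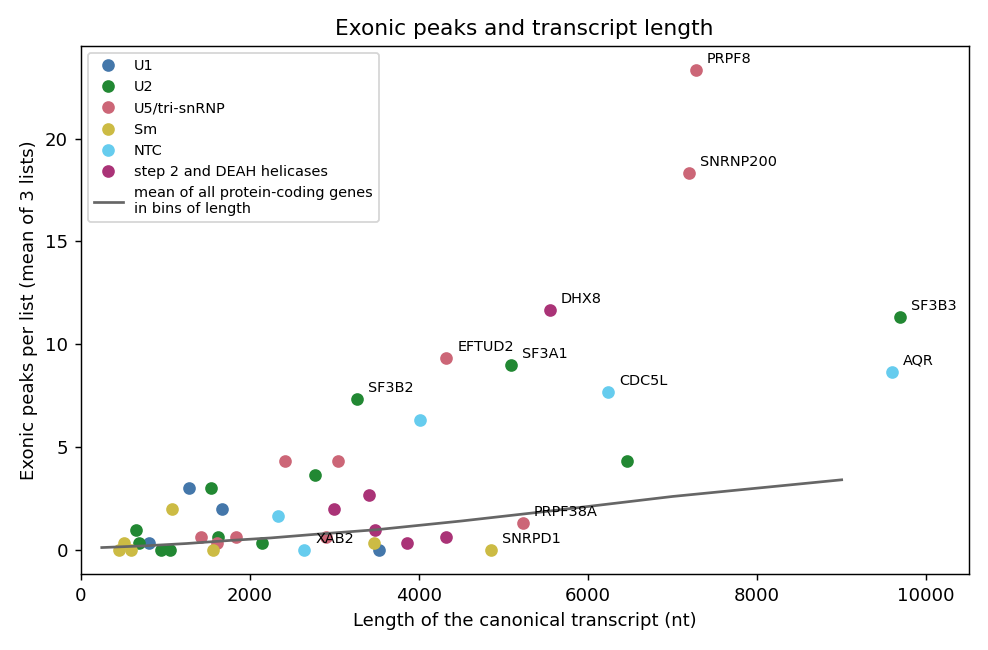
Exonic peaks per list (vertical axis, mean of 3 lists) against the length of the canonical transcript (horizontal axis, nt) for the 44 members, coloured by class, with the mean of all protein-coding genes in bins of length as a line. PRPF8 and SNRNP200 lie far above the line, and SNRPD1, XAB2 and PRPF38A at or below it.

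Summits in the members lay mainly in coding sequence. The coding share was 63.9%, 60% and 72.1% (mean 65.3% ± 6.20, SD, n = 3), against 37.2%, 28.4% and 49.6% for peaks of all protein-coding genes (38.4% ± 10.7). It was higher in 3 of 3 lists, by 26.7, 31.6 and 22.5 percentage points (mean 26.9 ± 4.57, SD, n = 3; exact two-sided sign-flip permutation p = 0.25, the smallest possible). With each gene weighted equally the difference was 22.3 ± 1.91 points (SD, n = 3), with the same exact permutation p of 0.25. Without PRPF8 and SNRNP200 it was 14.4, 25.96 and 16.7 points. Members also have more coding sequence to be hit: a median of 64.4% of the canonical transcript is coding, against 48.5% in protein-coding genes with a peak. How much of the difference goes with that composition was not tested.

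**Figure D5:**
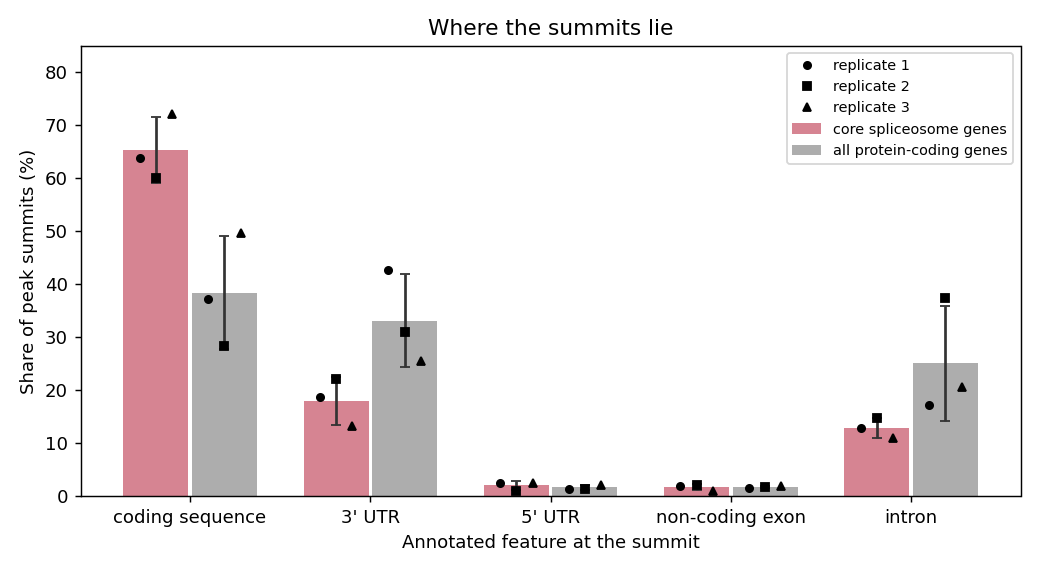
Share of summits by annotated feature (vertical axis, percent) for the core spliceosome genes and for all protein-coding genes, as means of 3 lists with the SD as bars and 1 marker per replicate. Coding sequence holds 65.3% of member summits against 38.4%, and 3' UTRs hold 18.0% against 33.2%.

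The 3' UTR share was 18.7%, 22.1% and 13.2% in the members and 42.8%, 31.1% and 25.6% in all protein-coding genes. Introns held 12.9%, 14.7% and 11.1% of member summits, against 17.2%, 37.4% and 20.6%. By position in the canonical transcript, 70.6% ± 5.87 of exonic member summits were in internal exons and 24.4% ± 6.05 in the last exon (SD, n = 3). Over all protein-coding genes, internal exons held 39.1%, 39.9% and 57.7%. Internal exons with a summit in any list had a median length of 164 nt (208 exons), and those without one had 111 nt (290 exons). These are exons of members alone. No such lengths are given for all protein-coding genes, and the role of exon length was not tested. The 3' UTR summits had a median distance of 335, 295 and 346.5 nt past the coding sequence in replicates 1, 2 and 3.

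By class, the coding share was 82.4%, 73.1% and 84.0% for U5/tri-snRNP genes. U2 genes had 47.4%, 63.9% and 69.2%, and NTC genes 44.4%, 58.3% and 66.7%. Second-step factors and DEAH-box helicases had 58.8%, 46.7% and 61.0%. Sm genes had only 3, 3 and 5 peaks in all, and U1 genes 5, 3 and 9, too few for a share.

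Peaks of the 3 lists that overlapped by at least 1 bp merged into 311 member regions. Of these, 51 regions, or 16.4%, were found in all lists, where the share was 14.1% over regions of all protein-coding genes. Another 105 were found in 2 lists and 155 in 1. The 51 regions lay in 18 members, with 9 in PRPF8, 6 each in SF3A1 and SF3B3, 5 in DHX8 and 4 each in SF3B2 and SNRNP200. By class, 19 of 77 regions of U2 genes were in all lists (24.7%), and 18 of 112 of U5/tri-snRNP genes (16.1%). Second-step factors and DEAH-box helicases had 6 of 45 (13.3%), and NTC genes 5 of 60 (8.33%). U1 genes had 2 of 10 and Sm genes 1 of 7. Among the 51 regions, all 3 summits were coding in 27 and in 3' UTRs in 12. The 3 summits spread over a median of 78 bp, and in 16 regions they fell within 50 bp. Mean folds of these regions ran from 1.98 in SF3B2 exon 13 to 5.70 in PRPF8 exon 16. Replicate 3, with the longest list, and replicate 1 had many more regions in common than either had with replicate 2: 127 regions were found in both lists without replicate 2, against 78 without replicate 1 and 52 without replicate 3.

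Intronic summits of the members sat next to exons. Of 60 summits in a canonical intron, 52 (86.7%) were within 50 bp of an exon, 31 of them next to a 3' splice site and 21 next to a 5' splice site. Counted by interval, 52 of the 60 ran into an exon. Per list the share was 100%, 45.5% and 93.1%, against 44.8%, 13.9% and 42.0% for all protein-coding genes. The difference was 55.2, 31.5 and 51.1 percentage points (mean 45.9 ± 12.6, SD, n = 3) and was above 0 in each. An exact permutation test by sign flips, two-sided, gave p = 0.25. This comparison was chosen after the values were seen. The origin of the reads under these summits was not tested.

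In 4 introns the same splice site had such a summit in 2 lists, and each was a 3' splice site. Their letters show the end of the intron, with its AG, in lower case, followed by the first 50 bases of the coding exon in capitals.
AQR, intron 7 to exon 8, chr15:34940950-34941049, minus strand: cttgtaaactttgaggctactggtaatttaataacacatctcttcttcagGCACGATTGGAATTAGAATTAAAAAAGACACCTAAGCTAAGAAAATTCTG
PRPF8, intron 21 to exon 22, chr17:1673843-1673942, minus strand: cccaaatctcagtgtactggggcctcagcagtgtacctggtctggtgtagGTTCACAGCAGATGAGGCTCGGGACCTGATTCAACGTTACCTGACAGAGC
SF3A3, intron 10 to exon 11, chr1:37978778-37978877, minus strand: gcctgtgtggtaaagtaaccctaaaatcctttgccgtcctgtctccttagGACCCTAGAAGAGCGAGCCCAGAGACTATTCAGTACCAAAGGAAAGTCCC
SF3B3, intron 3 to exon 4, chr16:70530695-70530794, plus strand: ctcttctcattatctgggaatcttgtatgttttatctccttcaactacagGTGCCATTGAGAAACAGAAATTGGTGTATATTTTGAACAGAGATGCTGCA

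The AQR summits were 30 bp before the junction in replicate 1 and 5 bp before it in replicate 3, with folds of 3.44 and 3.42. In PRPF8 they were 11 and 12 bp before it in the same replicates, with folds of 3.05 and 2.59, and in SF3B3 7 and 21 bp before it, with 2.40 and 2.96. The SF3A3 pair came from replicates 2 and 3, at 29 and 10 bp, with 1.80 and 1.91. Both SF3A3 summits also lie in an exon without coding function of another transcript, so they are intronic in the canonical transcript alone. None of the 4 was an edge in all lists.

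With a minimum fold of 4, 5 members kept a peak in every list: SF3A1, SF3B3, PRPF8, SNRNP200 and PRPF6. The share among all protein-coding genes was 4.06% at that threshold. With a −log10 q of at least 5, where the share was 15.1%, there were 11, those 5 together with SF3B1, SF3B2, EFTUD2, CDC5L, CRNKL1 and DHX8. No U1 or Sm gene passed either threshold in every list, but these classes have only 4 and 7 genes. At the minimum fold of 4, the NTC class and the class of second-step factors and DEAH-box helicases had none either.

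A second list of 57 other spliceosome genes had 23 genes (40.4%) in every list, against 50% of the members, and 4, BCAS2, LSM2, PLRG1 and SNRNP48, in none. The 6 that ranked highest by their best −log10 q were SF1, DDX23, WBP11, USP39, ZMAT2 and CHERP. SF1, which binds the branch point before the U2 snRNP does, had best folds of 3.65, 4.85 and 9.05 (mean 5.85 ± 2.84, SD, n = 3). DDX23, a DEAD-box helicase of the tri-snRNP, had 3.88, 5.22 and 5.67 (mean 4.92 ± 0.931, SD, n = 3). The means of the other 4 ran from 2.75 ± 0.257 for WBP11 to 3.44 ± 0.281 for CHERP (SD, n = 3).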

How the data were processed

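RIP-seq peaks of DDX5 in RH30 nuclear extracts were analysed from 3 deposited lists, 1 for each DDX5_IP replicate. Per the submitters' processing notes, the tools named are MACS2 2.2.7.1, SAMtools 1.10, STAR 2.6.1d, cutadapt 1.11, FastQC 0.11.8 and bcl2fastq 2.20, with the build GRCh38/hg38. No parameters or control are given in the sources used here. The libraries were unstranded, per the labels' protocols. The fold enrichment of a peak is a ratio made by the authors, and the deposited p-value and q-value are given as −log10. A deposited score was left unused. These are the authors' values for single peaks and were compared within a list alone. Depth is unknown, so no counting interval is given.

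Summits of 1 interval were counted as 1 peak at the highest −log10 q. A peak belonged to each GENCODE version 44 gene whose body held the summit. Features were taken from any transcript of the gene with coding sequence first, then 5' UTR, 3' UTR, exons without coding function and introns. Lengths, exon numbers and distances came from the Ensembl canonical transcript, and the stop codon counted as 3' UTR. Python 3.11.15 and numpy 2.4.6 were used, and the computations were tested on simulated data. Values per list were compared by sign flips in an exact permutation test (two-sided) over the 3 lists, whose smallest p is 0.25. The members and lists were chosen with earlier results of these data known.

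All 44 members may be named. Other named genes are those that overlap a member or copy it, the markers, and, of the other spliceosome genes found in every list, the 6 ranked highest by their mean percentile of best −log10 q. The 4 genes of that list without a peak were named after their values were seen. Coding stretches shown are from regions in all lists whose summits lay in coding sequence or introns of the canonical transcript, by mean fold, at most 6 and 1 a gene. The alternatives were a −log10 q of at least 5, a fold of at least 4, lists cut to equal length, leaving out each replicate, unique gene assignment, exonic summits, every summit, a filter on repeated pairs of fold and p, and other overlap rules. Leaving out PRPF8 and SNRNP200 was added after the data were seen. INPUT samples were not analysed here.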

Additional observations from a re-analysis of the deposited data

How the results depend on the processing

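No paired analysis was possible because the INPUT samples, which share replicate numbers with the DDX5_IP samples, were not analysed here. Of 198 alternative values, 148 moved by less than the spread between lists or, for counts, by less than 1.5 times, 48 moved by more and 2 turned in sign. With a −log10 q of at least 5, 11 members (0 U1, 0 Sm, 2 NTC and 1 of the second-step factors and DEAH-box helicases) had a peak in every list and 15 regions were in all lists. The median best fold was then 4.02, the intronic share 9.22%, and exonic peaks per kb 0.668 in U2 and 0.0532 in Sm genes. With a fold of at least 4, 5 members (2 U2, 3 U5/tri-snRNP, and 0 in each of U1, Sm, NTC and the helicase class) and 2 regions remained past it. Coding and 3' UTR shares were 53.2% and 24.4% and the median best fold 5.17. The median fold difference to all protein-coding genes was 0.198 ± 0.424 (SD, n = 3). Exonic peaks per kb were 0.137 in U1, 0.213 in U2, 0.215 in U5/tri-snRNP, 0 in Sm, 0.0403 in NTC and 0.113 in the helicase class. Without peaks whose pair of fold and p recurred in at least 10 peaks of the list, 10 members (0 U1, 2 U5/tri-snRNP, 1 NTC and 1 helicase) and 11 regions were found in every list, the 3' UTR share was 25.7%, the median best fold 3.10 and the median fold difference 0.0333. Densities were 0.473 in U2, 0.590 in U5/tri-snRNP, 0.106 in Sm and 0.127 in the helicase class. Without PRPF8 and SNRNP200 the coding and 3' UTR shares were 57.4% and 23.4%. With equal list lengths the median best fold was 3.70, with every summit counted the intronic share was 17.3%, and with exonic summits only 1 U1 gene was in every list. With a reciprocal overlap of 50%, 31 regions were in all lists. Leaving out 1 replicate at a time gave 23 to 25 members, 52 to 127 regions and 1 to 2 Sm genes, the 2 without replicate 3. These settings keep fewer peaks by construction where a threshold rises, and other causes were not tested. Repeated pairs of fold and p made up 53.7%, 61.0% and 68.0% of all peaks in the lists. Shares over all protein-coding genes are not given for that filter, the reciprocal overlap or the lists left out. Counts under those settings thus cannot be read as particular to the members. The exact permutation test over 3 lists cannot give a p below 0.25.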
